A study of Arabidopsis thaliana with 6 samples.

Results

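The genes described here are transcription factors named for the bZIP, bHLH, homeobox (HB, ATHB, HAT), DOF, GATA, LBD, GRF and TCP families. A gene was a member when its symbol or a RefSeq synonym opened with one of these family names followed by a number. The name pattern found 33 of the 13356 genes that had a probe set paired with 1 gene, and 4 of them (HAT2, LBD16, LBD29 and PHV) were left out by rule, which gave 29 members. Of these, 20 were bZIP genes and 7 were bHLH genes, with 1 homeobox gene (HAT3.1) and 1 TCP gene (TCP15). No member came from the DOF, GATA, LBD or GRF families, so the values describe bZIP and bHLH genes in the main.

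The arrays were Affymetrix ATH1 arrays of Arabidopsis thaliana seedlings, 9 days old, with 2 arrays in each of 3 groups. In the first group, mp-B4149 seedlings, mutant for the auxin response factor MONOPTEROS, had 10 µM dexamethasone (DEX) for 1 h and then 50 µM of the auxin IAA for 1 h. In the second, seedlings of the line pRPS5A-Myc-GR-bdl had DEX and IAA at the same doses and times. In the third, seedlings of that line had IAA alone, and they are called controls below. The treatment text names DEX for every sample, these controls included. Their source names and the design text give IAA alone, which is followed here. The titles of the mp arrays name IAA alone, whereas their source names and the design text give DEX as well, and the mp seedlings are taken here as DEX-treated. IAA was thus given to all 3 groups, and no group shows a level without auxin. BODENLOS is a repressor of auxin response, and the bdl form is resistant to breakdown. In this line it is fused to a glucocorticoid receptor domain and driven by the RPS5A promoter, which is active in dividing tissue. The fusion enters the nucleus when DEX is given. DEX was not given to a line without mutation or transgene, so its own effect cannot be told apart from that of the fusion.

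Both large families bind DNA as pairs of proteins. A bZIP factor holds a basic region that contacts DNA and a leucine zipper through which 2 factors join, and a bHLH factor joins its partner through a helix-loop-helix. Plant bZIP factors are sorted into lettered groups, whose members differ in role, from energy shortage (group S) and endoplasmic reticulum stress (groups B and K) to zinc shortage (group F). The bHLH members are mostly regulators of iron supply. Members of subgroup IVc and bHLH121 act upstream of the subgroup Ib factors, which in turn drive iron uptake in the root.

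Levels below are log2 gcRMA intensities, and differences are on the same log2 scale with the limma standard error (SE). A call means a limma p under 0.05 after Benjamini-Hochberg adjustment over all 22746 probe sets. A mean under 4 was taken as a low level. Of all probe sets, 43.1% to 44.1% lay below it on each array. By their mean over the 6 arrays, 19 members lay above that level and 10 under it. The 10 were bHLH101, bHLH94, bZIP24, bZIP31, bZIP33, bZIP34, bZIP42, bZIP43, bZIP48 and bZIP58. In the gene lists, a gene counted as measured when the annotation paired a probe set with it alone. Of the HD-ZIP, zinc finger homeodomain, GATA and partner gene lists drawn up for these families, 0 genes were measured. These lists do not hold HAT2 or PHV, which were left out by rule. Of 13 listed class I TCP genes 2 were measured, of which TCP15 has a name. Genes not measured in this sense may still have a probe set on the array. Levels of different genes are not set against each other, since each probe set has its own response.

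The first comparison asked which members changed when GR-bdl had been released by DEX before auxin, with the controls taken as given IAA alone. Of the 29 members, 3 fell in DEX-treated GR-bdl seedlings against controls, none rose and 26 were not called. All 3 were bZIP genes, namely bZIP61 and bZIP34 of group E and bZIP44 of group S. Over all probe sets 2.27% were called in this comparison, 0.637% higher and 1.64% lower. Of the 3, only bZIP61 fell by at least 1 on the log2 scale, a size that 1.01% of all probe sets reached downwards and 0.145% upwards among those called. The median difference was 0.08 over the members and 0.04 over all probe sets.

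bZIP61 (AT3G58120), a group E factor, stood at 7.87 and 7.56 in DEX-treated GR-bdl seedlings, against 9.38 and 9.35 in controls. Both treated arrays lay far below both control arrays, a 3.13-fold lower level. The difference was −1.65 ± 0.13 (SE, n = 2 per group), with a limma adjusted p of 0.00034. It was the member with the largest decrease, and 0.266% of the 13513 probe sets with 1 gene had a lower difference. In the mp seedlings bZIP61 stood at 8.16 and 8.12, between the other groups.

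bZIP34 (AT2G42380), the other measured factor of group E and known for pollen wall formation, was lowest and highest in the same groups, at a low level. Its arrays read 2.33 and 2.42 in DEX-treated GR-bdl seedlings, against 3.21 and 3.18 in controls, with no overlap. The difference was −0.82 ± 0.11, at a limma adjusted p of 0.00854. The call was lost without control array 1 (0.0786), without control array 2 (0.0763) and with a pseudocount of 16 (difference −0.25, limma adjusted p = 0.0749). Both measured members of group E thus fell on the deposited scale. The groups were assigned after members' values were seen, so the shared direction is no separate support.

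bZIP44 (AT1G75390) is a group S factor of the subgroup S1, whose translation is repressed by sucrose. It stood at 7.86 and 7.92 in DEX-treated GR-bdl seedlings, against 8.47 and 8.59 in controls. The groups did not overlap, and the difference of −0.64 ± 0.11 (limma adjusted p = 0.0256) was 1.56-fold. The call rested on all 4 arrays of the comparison, since leaving out DEX-treated array 1 or 2 gave a limma adjusted p of 0.0875 or 0.0749, and leaving out control array 1 or 2 gave 0.117 or 0.259.

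**Figure D1:**
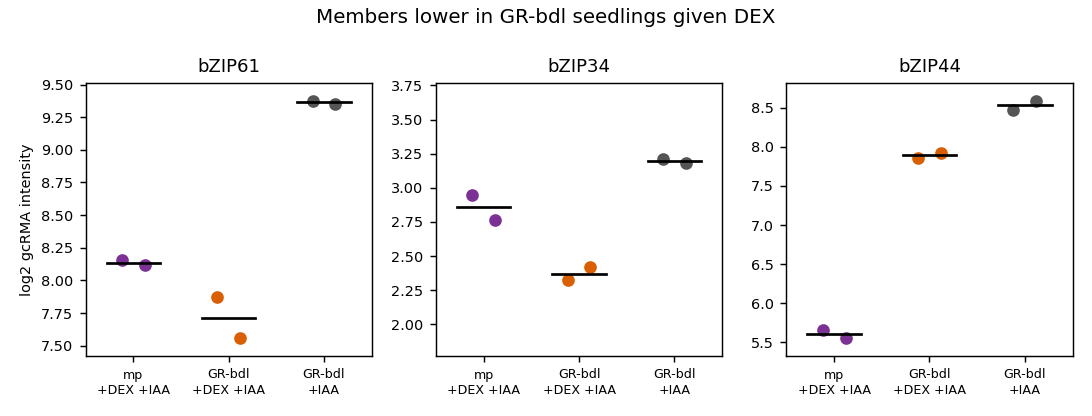
Log2 gcRMA intensity (vertical axis) of bZIP61, bZIP34 and bZIP44 in mp seedlings with DEX and IAA, GR-bdl seedlings with DEX and IAA, and GR-bdl seedlings with IAA alone. Points are arrays (2 per group) and bars are group means. All 3 genes are highest in the controls; bZIP61 and bZIP34 are lowest in DEX-treated GR-bdl seedlings and bZIP44 is lowest in mp.

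The 26 members that were not called had differences between −0.45 and 0.46. Among them, bZIP18 of group I had 5.88 and 6.22 in DEX-treated seedlings, against 5.44 and 5.74 in controls, a difference of 0.46 ± 0.18 with a limma adjusted p of 0.353. HAT3.1, a homeodomain protein with a PHD finger, had 5.49 and 4.93 in DEX-treated seedlings, against 5.73 and 5.59 in controls. Its difference of −0.45 ± 0.20 had a limma adjusted p of 0.422. The next by size were bZIP24 (0.36), bHLH121 (0.27), bZIP58 (0.24) and bHLH94 (0.21), with limma adjusted p values of 0.27 to 0.549.

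None of the 7 bHLH members was called after DEX, with 0 at an unadjusted p under 0.05 as well. Their differences ran from 0.03 to 0.27. The 95% interval of the difference was −0.21 to 0.33 for ILR3 and −0.53 to 0.61 for bHLH104, so the precision differed between genes. TCP15, a class I TCP factor linked to cell proliferation and growth, had 4.59 and 4.24 in DEX-treated seedlings, against 4.40 and 4.61 in controls. Its arrays overlapped, and the interval of the difference was −0.43 to 0.26.

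The poly-A controls differed between these groups, and some root markers were called lower in other settings of the fit. The 24 poly-A control probe sets had a median difference of 0.36 between DEX-treated seedlings and controls, and the 18 hybridization control probe sets had one of 0.05. Centring the arrays on the poly-A controls, a setting added after the data were seen, moved all differences down alike. The median over all probe sets went from 0.04 to −0.35, and limma gave every probe set an SE of 0.26. In this setting bZIP61, bZIP34 and bZIP44 were called lower, and HAT3.1 was called lower too (−0.84, limma adjusted p = 0.0376). Since the shift itself lowers each value, calls of decreases in this setting are no separate support. The root marker JKD had 3.74 and 4.02 in DEX-treated seedlings, against 4.94 and 4.42 in controls. Its difference of −0.80 was not called (limma adjusted p = 0.0756), but it was called with the arrays centred on either set of controls, with the trend and robust options and without control array 2. EXPA7 (−0.51) and EXPA18 (0.09) were not called, but EXPA7 was lower with the poly-A centring (−0.90, limma adjusted p = 0.0207). The part of these shifts in the members' values was not tested.

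The second comparison was between mp and the controls. Line differed, and so did DEX if the source names and design text are right, rather than the mp titles or the treatment text. Of the 29 members, 5 rose in mp, 8 fell and 16 were not called. The called share, 13 of 29 members (44.8%), was close to the 41.5% of all probe sets called in this comparison, of which 23.9% of the tested probe sets were higher and 17.5% lower. Among the members above a mean of 4, 10 of 19 were called, against 53.3% of all probe sets above it. A called difference of at least 1 was found for 1 member upwards and 3 downwards, against 7.53% and 7.84% of all probe sets. The counts thus do not set the members apart, and what follows describes single genes. The median difference was −0.06 over the members and 0.12 over all probe sets. The labels give no batch, so batch and line cannot be told apart.

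The scale of the arrays bears on these directions. The 18 hybridization control probe sets, RNA added before hybridization, had a median difference of 0.33 between mp and controls. With the arrays centred on them, the median difference of all probe sets was −0.22 in place of 0.12, and 2 members were called higher (bHLH34 and bHLH101) and 15 lower. The share of member calls that were higher was 38.5% as deposited and 11.8% after that centring. For mp against DEX-treated GR-bdl seedlings the same shares were 42.9% and 18.8%. The 24 poly-A controls differed more, by a median of 0.61 between mp and controls and 0.19 between mp and DEX-treated seedlings. With the arrays centred on them, the median difference of all probe sets between mp and controls was −0.53, and 0 members were called higher and 20 lower. Against DEX-treated seedlings 2 were then called higher (bHLH34 and bHLH101) and 9 lower. In that fit limma gave every probe set the same SE of 0.26, so its p values follow the size of the difference alone. The increases in mp given below are thus on the deposited scale, and those against controls were called in no member with the poly-A centring.

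Root markers moved with the same contrast. Of the 14 root markers listed, 4 were measured, and 3 of them were lower in mp than in controls, namely EXPA7, EXPA18 and JKD. EXPA7 averaged 3.65 ± 0.16 in mp and 7.45 ± 0.32 in controls, and EXPA18 averaged 3.70 ± 0.15 in mp and 6.59 ± 0.05 in controls (SD, n = 2 each). PYK10, a root beta-glucosidase, averaged 13.30 in mp and 13.19 in controls and was not called. Among 4 green shoot markers, PRK, RCA and LHCB4.1 were not called and SBPASE was higher by 0.31. With hybridization-control centring SBPASE differed by −0.02, while RCA (−0.51, limma adjusted p = 0.00821) and LHCB4.1 (−0.51, limma adjusted p = 0.0087) were lower in mp. The stem cell gene CLV3, the measured shoot apex marker, averaged 2.90 in mp and 2.64 in controls and was not called. Against DEX-treated GR-bdl seedlings EXPA7 (−3.29), EXPA18 (−2.98) and JKD (−0.72) were called lower in mp as well. The part of organ make-up in the values below was not tested, and in whole seedlings fewer cells of a type and less RNA per cell cannot be told apart.

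bZIP44 had the largest difference of any member. It stood at 5.66 and 5.56 in mp, against 8.47 and 8.59 in controls. The groups were far apart, with 7.58-fold less signal in mp, and the difference was −2.92 ± 0.11 with a limma adjusted p of 3.14e-07. Of the probe sets with 1 gene, 1.52% had a lower difference. The call held in each of the 15 other settings of the fit, with differences from −3.58 to −2.57. The settings are not all distinct, since leaving out an array of the third group gave the same values as the 4 arrays alone.

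The other well-expressed group S gene, bZIP53 (AT3G62420), a factor of the response to energy shortage that pairs with group C factors, also fell in mp. Its arrays read 8.73 and 8.53 in mp, against 9.38 and 9.40 in controls. The difference was −0.76 ± 0.14, with a limma adjusted p of 0.00305. Of the remaining group S genes, all of low level, bZIP58 had 2.14 and 2.13 in mp, against 1.74 and 1.63 in controls. It was called higher (0.45 ± 0.11, limma adjusted p = 0.0106), but its limma adjusted p was 0.534 with hybridization-control centring, 0.487 with poly-A centring (difference −0.20), 0.0844 with a pseudocount of 16 and 0.1 without control array 2. bZIP42, bZIP43 and bZIP48 were not called, with differences from 0.04 to 0.09.

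Both group E genes were lower in mp too. bZIP61, at 8.16 and 8.12 in mp against 9.38 and 9.35 in controls, differed by −1.23 ± 0.13 (limma adjusted p = 0.00012), with no overlap. bZIP34 stood at 2.95 and 2.77 in mp, against 3.21 and 3.18 in controls. Its difference of −0.34 ± 0.11 had a limma adjusted p of 0.0449, and 6 of the 14 other settings gave no call, with limma adjusted p values up to 0.191. These were median centring (0.0727), the pseudocount of 16 (0.0642), the replicate block (0.061), and the fits without control array 1, control array 2 or mp array 2.

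On the deposited scale the 6 iron-linked bHLH genes split in mp. Of these, 3 rose (bHLH34, bHLH115 and bHLH101), 2 fell (bHLH104 and bHLH121) and ILR3 was not called. Over all probe sets 41.5% were called, 23.9% higher and 17.5% lower. With hybridization-control centring bHLH34 and bHLH101 were higher, bHLH104, bHLH121 and ILR3 were lower, and bHLH115 was not called. With poly-A centring bHLH104, bHLH121 and ILR3 were lower and the others were not called. The 4 members of subgroup IVc, bHLH34, bHLH104, ILR3 and bHLH115, are close relatives with shared roles in iron supply. Within this subgroup 2 rose and 1 fell on the deposited scale.

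bHLH34 (AT3G23210) had 5.08 and 5.52 in mp, against 3.90 and 4.27 in controls, on either side of the level of 4. The difference was 1.22 ± 0.20, a 2.32-fold higher level, with a limma adjusted p of 0.00152. It was 0.75 and called with a pseudocount of 16, and 0.56 and not called with the poly-A centring (limma adjusted p = 0.0605). bHLH115 (AT1G51070) had 9.22 and 9.30 in mp, against 8.48 and 8.51 in controls, a difference of 0.76 ± 0.16 (limma adjusted p = 0.00624). In both genes the mp arrays lay above all control arrays. bHLH115 lost its call with hybridization-control centring (0.43, limma adjusted p = 0.059) and with poly-A centring (0.11, limma adjusted p = 0.721).

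bHLH101 (AT5G04150), the measured subgroup Ib factor and itself induced by iron shortage, read 3.27 and 3.01 in mp, against 2.08 and 2.25 in controls. It rose by 0.98 ± 0.14 (limma adjusted p = 0.000716) while its level stayed low. With a pseudocount of 16 the difference was 0.28, still called, and with the poly-A centring it was 0.32 and not called (limma adjusted p = 0.272).

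bHLH104 (AT4G14410) went the other way, at 6.79 and 5.92 in mp, against 7.45 and 7.50 in controls. The mp arrays differed from each other by more than those of any other iron-linked gene, but both lay below the controls, and the difference was −1.12 ± 0.25 (limma adjusted p = 0.00723). Without mp array 2 it was −0.69, still called. bHLH121 (AT3G19860), a subgroup IVb factor needed for the iron shortage response, read 7.53 and 7.37 in mp, against 8.28 and 7.91 in controls. Its difference was −0.65 ± 0.14 (limma adjusted p = 0.0072), and it was not called without control array 1 (0.0663).

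ILR3 (AT5G54680), first known from a screen for resistance to an auxin conjugate, had 10.10 and 10.23 in mp, against 10.26 and 10.29 in controls. The groups were close, and the interval of the difference was −0.38 to 0.16. With hybridization-control centring it was called lower (−0.45, limma adjusted p = 0.0282). bHLH94, in the same bHLH subgroup as the stomatal lineage factors, averaged 2.59 in mp and 2.29 in controls and was not called (0.30 ± 0.12, limma adjusted p = 0.0729).

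From a list of 27 iron shortage genes, 5 were measured, of which 1 has a name in the tables used here. That gene, PYE (POPEYE, AT3G47640), encodes a bHLH factor of the iron shortage response that binds subgroup IVc factors. It read 8.25 and 8.59 in mp, 5.16 and 5.39 in DEX-treated GR-bdl seedlings, and 5.07 and 5.29 in controls. The mp arrays stood apart from all others, with a difference from controls of 3.24 ± 0.16, a 9.43-fold higher level, and a limma adjusted p of 1.19e-06. It was called in all 15 other settings, between 2.58 and 3.41. PYE was not called between the GR-bdl groups (0.10, limma adjusted p = 0.871). The other 4 measured genes of the list were counted only, so PYE does not show how the list as a whole moved.

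**Figure D2:**
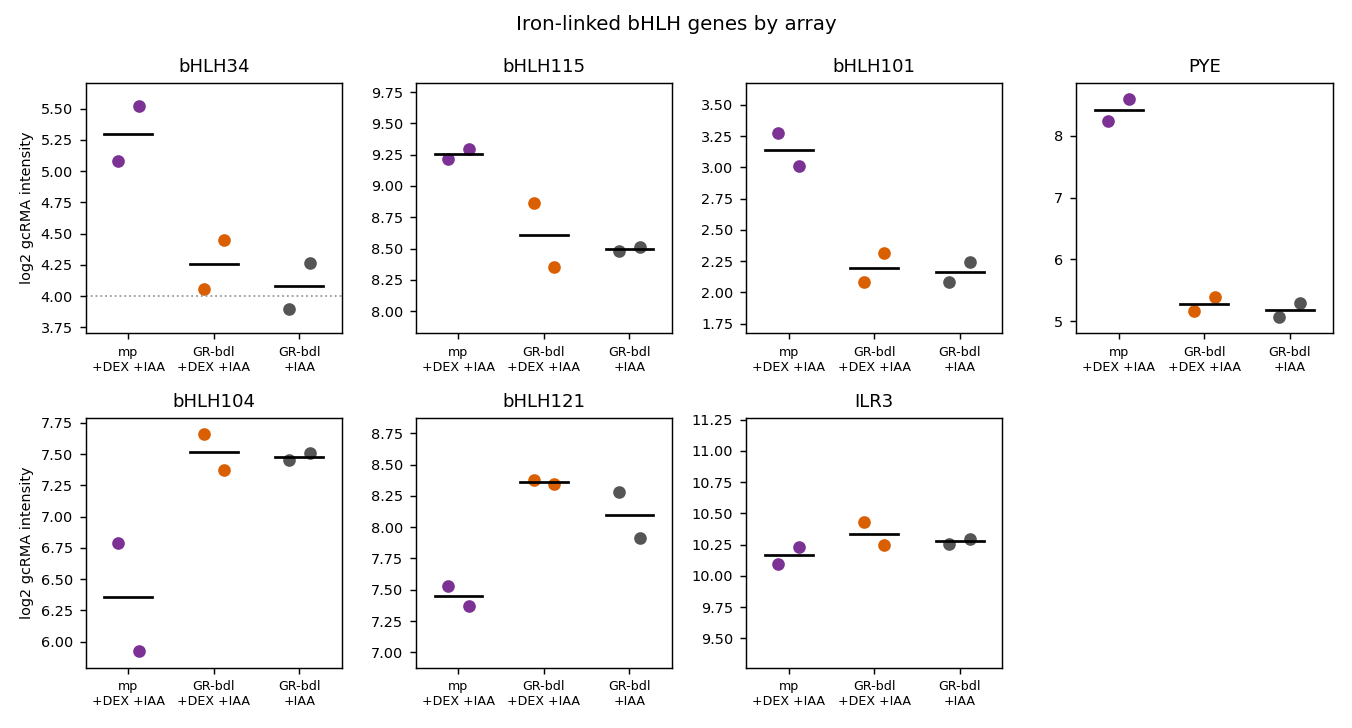
Log2 gcRMA intensity (vertical axis) of the 6 iron-linked bHLH members and of PYE, for mp with DEX and IAA, GR-bdl with DEX and IAA, and GR-bdl with IAA. Points are arrays, bars are group means, and the dotted line in the bHLH34 panel is the level of 4. bHLH34, bHLH115, bHLH101 and PYE are highest in mp, bHLH104 and bHLH121 are lowest in mp, and ILR3 differs little.

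The stress-sensing bZIP genes differed among themselves in mp. bZIP28 (AT3G10800) and bZIP17 (AT2G40950) of group B are held in the endoplasmic reticulum membrane and released by proteolysis under stress, and bZIP60 (AT1G42990) of group K is made active by splicing of its messenger. bZIP28 had 7.55 and 7.43 in mp, against 8.18 and 8.38 in controls, a difference of −0.79 ± 0.17 (limma adjusted p = 0.00626). bZIP17 was not called, at 6.18 and 6.38 in mp against 6.37 and 6.57 in controls, and became lower with hybridization-control centring (−0.53, limma adjusted p = 0.0172). bZIP60 was not called either, at 9.01 and 9.10 in mp against 8.85 and 9.00 in controls, with an interval of −0.14 to 0.40. Values of the transcript do not show the release or splicing of these factors.

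Of 28 listed genes of endoplasmic reticulum stress, 7 were measured, 5 of them with a name. CRT1b, a calreticulin, fell in mp by 0.58 ± 0.14 (limma adjusted p = 0.00972), and was not called without control array 2 (0.0917). The protease gene S1P, whose product cuts bZIP17 and bZIP28, had 6.50 and 6.25 in mp, against 6.03 and 6.06 in controls, and was not called (0.33, limma adjusted p = 0.0588). ATERDJ3B, DER1 and DER2.1 were not called against controls, with differences from −0.44 to −0.06. Against DEX-treated GR-bdl seedlings, CRT1b (−0.62, limma adjusted p = 0.00696) and DER2.1 (−0.67, limma adjusted p = 0.0193) were lower in mp. The DER2.1 call was kept in 12 of 15 other settings. ATERDJ3B, DER1 and S1P were not called there.

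bZIP19 (AT4G35040), a group F sensor of zinc shortage, had 8.16 and 8.30 in mp, against 8.53 and 8.60 in controls. The arrays did not overlap, and the difference of −0.33 ± 0.12 lay just outside the threshold (limma adjusted p = 0.0543). It was called lower in 9 of 15 other settings, among them hybridization-control centring (−0.67, limma adjusted p = 0.00337). bZIP24, the other group F gene, had a low level and differed by −0.08, and was called lower with that centring (−0.41, limma adjusted p = 0.0322). Of 12 listed zinc shortage genes, ZIP9 and ZIP6 were measured, both of low level. ZIP6, a metal transporter gene, fell by 0.62 (limma adjusted p = 0.00413), and ZIP9 was not called (−0.42, limma adjusted p = 0.0611). Against DEX-treated GR-bdl seedlings, both ZIP6 (−0.70, limma adjusted p = 0.00214) and ZIP9 (−0.49, limma adjusted p = 0.0353) were lower in mp. The ZIP9 call there was kept in 10 of 14 other settings.

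Of the 7 group I genes, relatives of the factor VIP1, 1 was called. bZIP29 (AT4G38900), which acts on cell number in leaves and roots, had 6.19 and 6.03 in mp, against 5.40 and 5.64 in controls, a difference of 0.59 ± 0.13 (limma adjusted p = 0.00785). Its call was lost with hybridization-control centring (0.26, limma adjusted p = 0.2), with poly-A centring, where the difference was −0.06 (limma adjusted p = 0.849), or without control array 1 (0.0753). The other 6 differed by −0.48 to 0.12. HAT3.1 (AT3G19510), at 4.59 and 4.98 in mp against 5.73 and 5.59 in controls, fell by 0.87 ± 0.20 (limma adjusted p = 0.00861), and was not called without control array 1 (0.0502) or mp array 1 (0.0614). TCP15 stood at 4.42 and 4.57 in mp, against 4.40 and 4.61 in controls, and its interval ran from −0.35 to 0.34.

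**Figure D3:**
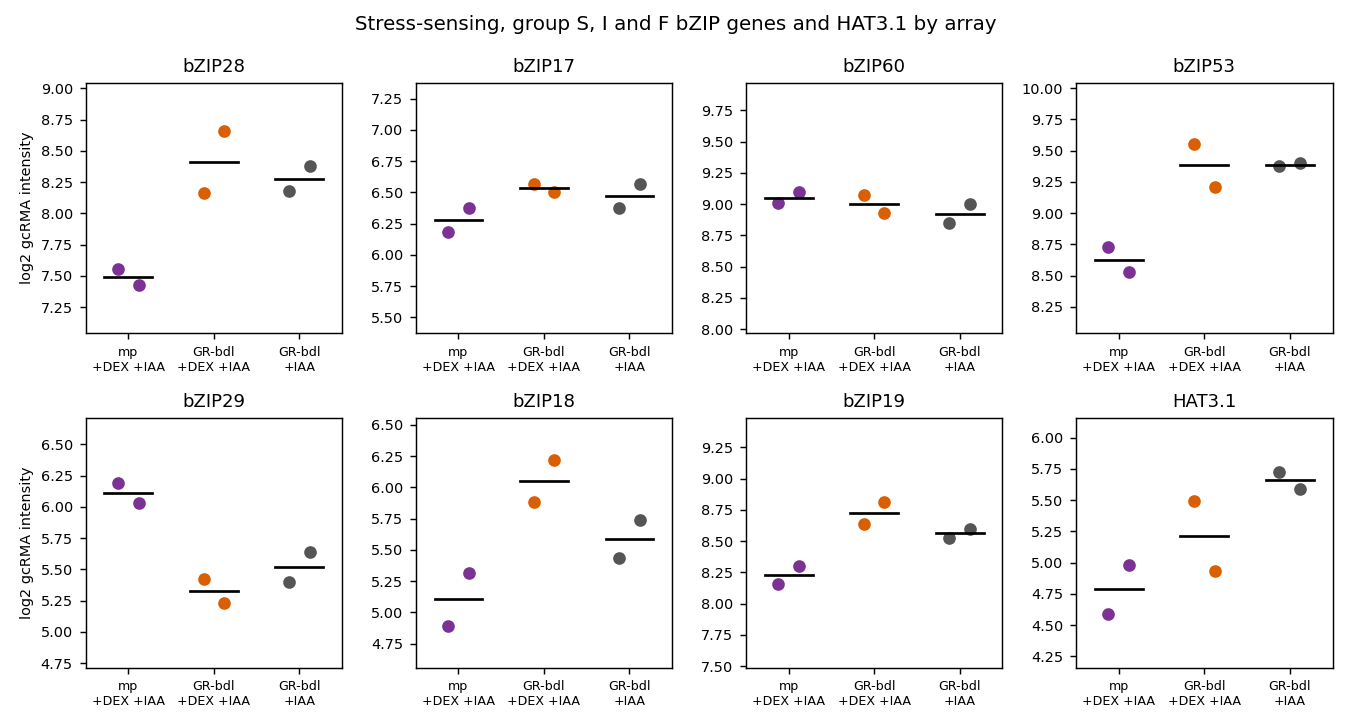
Log2 gcRMA intensity (vertical axis) of bZIP28, bZIP17, bZIP60, bZIP53, bZIP29, bZIP18, bZIP19 and HAT3.1 in mp with DEX and IAA, GR-bdl with DEX and IAA, and GR-bdl with IAA. Points are arrays and bars are group means. bZIP28 and bZIP53 are lowest and bZIP29 is highest in mp, while the groups of bZIP17 and bZIP60 lie close together.

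The third comparison was between mp and GR-bdl seedlings that had the same treatment of DEX and IAA by the source names and design text, though not by the mp titles. Of the 29 members, 6 were higher in mp, 8 were lower and 15 were not called. The called share was 48.3%, against 40.1% of all probe sets (22.1% higher and 18.0% lower) and, above a mean of 4, 11 of 19 members against 53.5% of probe sets. A called difference of at least 1 was found for 1 member upwards and 2 downwards, against 7.63% and 7.63% of all probe sets. The median difference was −0.06 over the members and 0.07 over all probe sets. This comparison shares the mp arrays with the second and the DEX-treated arrays with the first, so its values are given beside theirs and not as separate support.

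The group E genes were higher in mp than in DEX-treated GR-bdl seedlings. bZIP61, at 8.16 and 8.12 in mp against 7.87 and 7.56 in DEX-treated seedlings, was higher by 0.42 ± 0.13 (limma adjusted p = 0.0317). That call was lost in 8 of 15 settings, namely centring on the hybridization controls (0.15, limma adjusted p = 0.425) or the poly-A controls (0.16, limma adjusted p = 0.727), the 4 arrays fitted alone and each fit without a control array (0.0588), and the fits without either mp array or without DEX-treated array 2 (0.0834 to 0.15). bZIP34, at a low level, was higher by 0.49 ± 0.11 (limma adjusted p = 0.0098), at 2.95 and 2.77 in mp against 2.33 and 2.42. Its call was lost with hybridization-control centring (0.22, limma adjusted p = 0.231), with poly-A centring (0.22, limma adjusted p = 0.611) or without mp array 1 (0.0588). From low to high the order of bZIP61 levels was thus DEX-treated GR-bdl seedlings, mp, controls, with the lower pair called apart as deposited but not in those 8 settings.

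bZIP44 was lower in mp than in DEX-treated GR-bdl seedlings (−2.28 ± 0.11), at a limma adjusted p of 1.26e-06. From low to high its order was mp, DEX-treated GR-bdl seedlings, controls. The step to mp was called in all 15 other settings, from −2.55 to −1.97. bZIP53 was also lower (−0.76 ± 0.14), with 8.73 and 8.53 in mp against 9.56 and 9.21 in DEX-treated seedlings (limma adjusted p = 0.00318).

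On the deposited scale, the iron-linked genes showed the same split against DEX-treated GR-bdl seedlings, where 40.1% of all probe sets were called. bHLH34 was higher in mp by 1.04 ± 0.20, bHLH101 by 0.94 ± 0.14 and bHLH115 by 0.65 ± 0.16, with limma adjusted p values of 0.00351, 0.000884 and 0.0136. The bHLH115 call was lost after centring on the hybridization controls (0.0908) or the poly-A controls (0.321) and without mp array 2 (0.0655), and its difference was 0.39 without DEX-treated array 2. With a pseudocount of 16 the difference of bHLH34 was 0.66 and that of bHLH101 was 0.27, both still called. Without mp array 2 the bHLH104 difference was −0.73, still called. bHLH104 (−1.16 ± 0.25) and bHLH121 (−0.91 ± 0.14) were lower, with limma adjusted p values of 0.00621 and 0.00118. ILR3 was not called (−0.17 ± 0.12), but was lower with hybridization-control centring (−0.44, limma adjusted p = 0.0305). PYE was higher by 3.14, with a limma adjusted p of 1.38e-06.

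Among the remaining members, 5 more were called in this comparison. bZIP28 was lower in mp (−0.92 ± 0.17), with 7.55 and 7.43 in mp against 8.17 and 8.66 in DEX-treated seedlings. bZIP18, linked to pollen, was lower (−0.94 ± 0.18, limma adjusted p = 0.00381), with 4.89 and 5.32 in mp against 5.88 and 6.22 in DEX-treated seedlings. bZIP29 was higher by 0.78 ± 0.13, with 6.19 and 6.03 in mp against 5.43 and 5.23, and was not called with the poly-A centring (0.52, limma adjusted p = 0.14). The group F genes bZIP19 and bZIP24 were lower, with differences of −0.49 ± 0.12 and −0.43 ± 0.12 (limma adjusted p = 0.0104 and 0.0226). The bZIP19 call was lost without DEX-treated array 2 (0.0532) or mp array 1 (0.0601). That of bZIP24, at a low level, was lost without DEX-treated array 1 (0.102) or mp array 2 (0.102) and with a pseudocount of 16 (0.128). HAT3.1 was not called (−0.43), and its mp arrays overlapped those of DEX-treated seedlings. It was called lower without DEX-treated array 2 (−0.71) and with centring on the hybridization controls (−0.69, limma adjusted p = 0.0114) or the poly-A controls (−0.69, limma adjusted p = 0.0351).

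**Figure D4:**
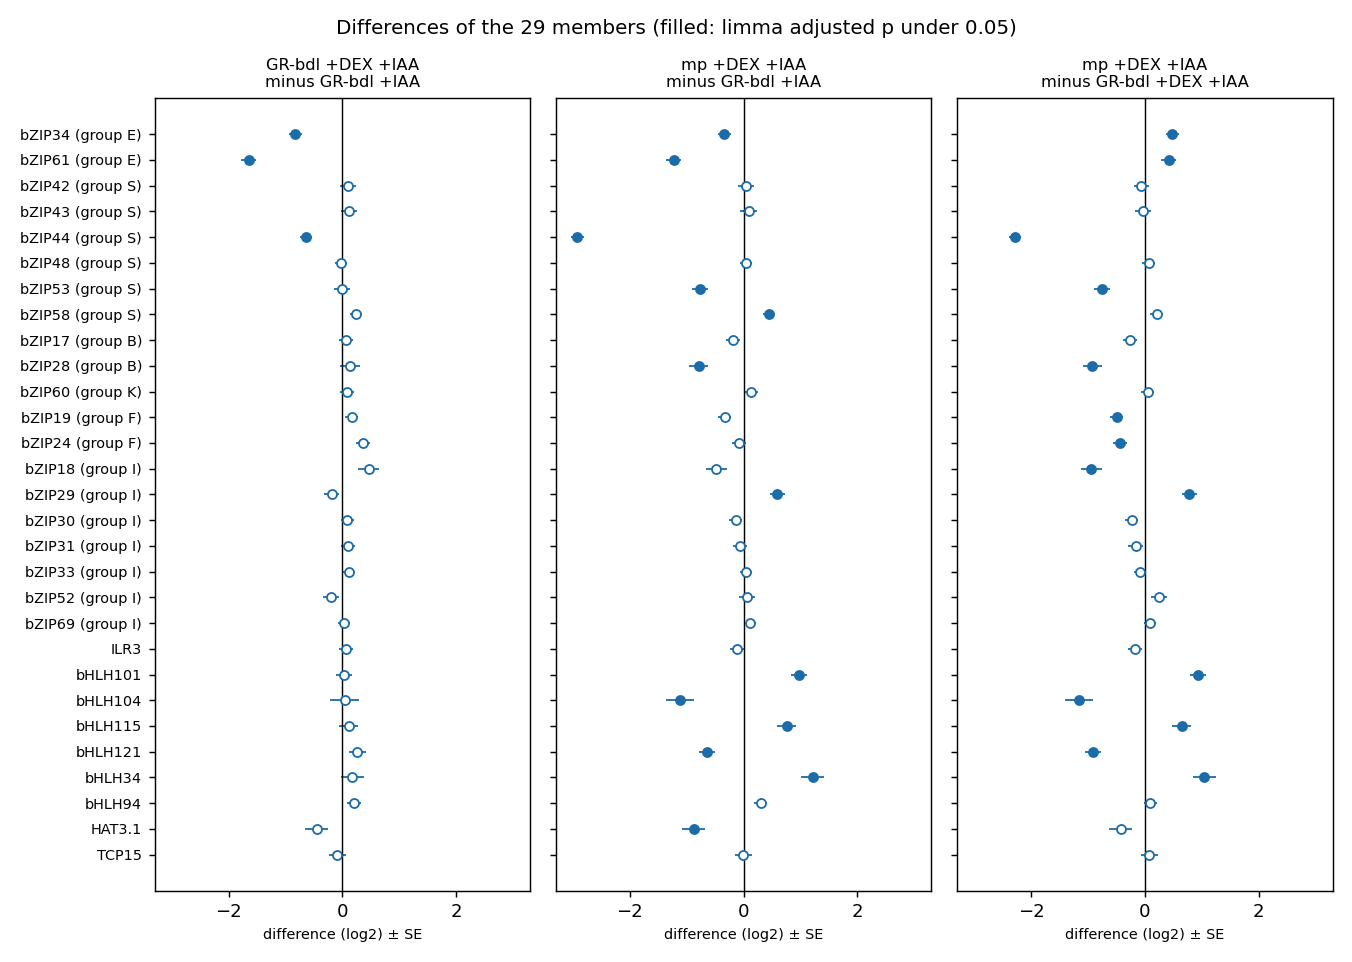
Differences on the log2 scale ± limma SE (horizontal axes) of the 29 members in the 3 comparisons, with filled points where the limma adjusted p is under 0.05. In the DEX comparison 3 points are filled, all below 0, against 13 and 14 in the comparisons with mp, on both sides of 0.

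On the deposited scale, 13 members were called in none of the 3 comparisons. Of these, 6 lay at a low level (bHLH94, bZIP31, bZIP33, bZIP42, bZIP43 and bZIP48) and 7 above it (ILR3, TCP15, bZIP17, bZIP30, bZIP52, bZIP60 and bZIP69). The differences of those 7 ran from −0.25 to 0.25 over the 3 comparisons, and their 95% intervals reached from −0.54 to 0.58. On other scales some were called lower in mp than in controls, namely ILR3, bZIP17 and bZIP30 with either centring on added controls, and TCP15 and bZIP52 with the poly-A centring.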

How the data were processed

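The authors deposited gcRMA intensity values on a linear scale for 6 ATH1 arrays. GCRMA is named in the submitters' processing notes without a version or settings. As background, the steps of gcRMA include a background correction by probe sequence and a summary of probes to probe sets. Array medians lay between 26.1 and 27.1. The treatment text names DEX throughout and the titles of the mp arrays leave it out, whereas the source names and the design text give DEX to 4 of the 6 cultures; groups follow these. The design text describes separate cultures for the arrays, and 2 arrays per group limit the precision.

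After 64 control probe sets had been set aside, log2 values of 22746 probe sets entered the analysis, unfiltered and without a pseudocount. The platform annotation paired 13513 (59.4%) with 1 gene, 503 with several and 8730 with none. Names and synonyms came from RefSeq (TAIR10.1), which held 13436 of the 13513. Of the 29 members, 21 were found by symbol and 8 through a synonym alone. Each had 1 probe set, with no suffix for cross-matching.

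A single limma 3.58.1 fit (R 4.3.3, lmFit with group means and eBayes) held all 6 arrays, with 3 residual and 5.12 prior degrees of freedom. The fit was also run on data simulated from its own variances, with known changes. Such a run checks the working of the fit, not whether the model suits the arrays. The simulated data held no shift between arrays, so the run does not bear on the shifts of the control probe sets. Centring on the 24 poly-A controls was added as an alternative after the data were seen. Tables and figures used Python 3.11.15.

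Members and lists were chosen with earlier results of these data known. Named were all members called after DEX, the 6 uncalled ones with the largest difference there, up to 3 called members per family and direction in the comparisons with mp, and measured genes of the family lists. All other genes and members, among them ILR3, bZIP17 and bZIP60, were named after their values were seen. The iron, endoplasmic reticulum and zinc lists were added once the annotation was known, and the bZIP and bHLH groups were assigned from background knowledge after members' values were seen. List genes without a name in these tables were counted only. No sequences were analysed here.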

Additional observations from a re-analysis of the deposited data

How the results depend on the processing

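The fit was run again after a repeated quantile normalization of the deposited values, and with centring on array medians or hybridization controls. Other fits had a pseudocount of 16, only means above 4, or eBayes trend and robust options. Further fits used 4 arrays or a replicate block, or left out each array in turn. Leaving out an array of the group outside a comparison gave the same values as its 4 arrays alone. Counts of settings therefore hold repeats. Member rules and a minimum difference of 1 on the log2 scale were also tried. The number of members called in GR-bdl with DEX against controls was 3, and 1 to 3 with an array left out; it was 1 without control array 1, 1 without control array 2, and 1 with the minimum difference of 1. In mp against controls it was 13, 9 to 14 with an array left out, and 4 with the minimum difference. In mp against DEX-treated GR-bdl seedlings it was 14, 11 to 13 with an array left out, and 3 with the minimum difference. With the arrays centred on the poly-A controls, added after the data were seen, the counts were 4, 20 and 11. There bHLH121 (−0.13), bHLH94 (−0.18), bZIP24 (−0.035) and bZIP58 (−0.15) changed direction after DEX, and bZIP29 (−0.059) and bZIP58 (−0.20) in mp against controls, none of them called. All other settings kept each count within 1.5 times. Of 36 values of named members, 15 kept their direction and their side of the threshold in every setting that changed the fit. Of the 530 recomputed values 45 lost a call while keeping their direction, 1 gained one and 6 changed direction, all 6 with the poly-A centring. Of the values that changed direction, bZIP29 and bZIP58 in mp against controls also lost a call. Only the 6 named values that were uncalled after DEX could gain a call, since the rest were already called. Values outside this set gained calls too, among them bZIP19 in 9 settings and bZIP18 in 4, both in mp against controls. The replicate numbers do not pair the arrays: the differences between arrays 1 and 2 correlated at −0.03, 0.10 and −0.04 between pairs of groups. With the replicate block 3, 13 and 14 members were called. In mp against controls bZIP18 gained a call (limma adjusted p = 0.0114 with the block, 0.0682 without it) and bZIP34 lost one (0.061 with the block); no other member call changed. With 2 arrays per group, small changes can be missed, so members without a call may still differ.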
